A study of Mus musculus with 12 samples.

Results

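Constitutive proteasome subunit genes were read in CD4 single positive (SP) thymocytes as they pass from the stage SP1 to the stage SP4. The members were the probe sets of the Affymetrix mouse genome array that the annotation assigns to 1 gene whose symbol begins with Psma, Psmb, Psmc, Psmd, Psme, Psmf or Psmg and a digit, with the immunoproteasome genes Psmb8, Psmb9 and Psmb10 left out. Where a gene had several probe sets, the one of highest mean intensity was taken. The rule gave 46 genes of 18193 with a probe set of their own. They comprised 7 genes of the 20S alpha ring, 7 of the 20S beta ring, 9 of the 19S base, 8 of the 19S lid, 4 activator and inhibitor genes, 7 assembly chaperone genes and 4 other genes that carry such a symbol. Psme2 was not a member, since its probe set also names a second gene.

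All cells were sorted as CD4+CD8-CD25-NK1.1- thymocytes from untreated C57BL/6 mice of 6 to 8 weeks of age. SP1 cells were Qa-2-6C10+CD69+, SP2 cells Qa-2-6C10-CD69+, SP3 cells Qa-2-6C10-CD69- and SP4 cells Qa-2+6C10-CD69-, and each subset was measured on 3 arrays that the labels call biological replicates. Each array held total RNA of cells from pooled thymi, so the spread between arrays is a spread between pools and not between single mice. By the study's own account, the SP4 gate can also hold a small share of mature T cells that had come back to the thymus. The values are linear intensities after background correction and normalization by the authors, and the number of arrays limits their precision. In such sorted bulk samples, fewer cells of a type and less RNA per cell cannot be told apart.

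The proteasome degrades proteins that carry ubiquitin chains. Its 20S core is a barrel of outer alpha rings, which gate the entry, and inner beta rings, of which Psmb6, Psmb7 and Psmb5 carry the caspase-like, trypsin-like and chymotrypsin-like active sites. The 19S cap consists of a base, with a ring of ATPases that unfold the substrate, and a lid that removes ubiquitin. In lymphoid cells and under interferon-gamma, Psmb9, Psmb10 and Psmb8 can take the places of Psmb6, Psmb7 and Psmb5 in newly assembled cores, and the peptides cut by such immunoproteasomes are loaded on MHC class I. In cortical thymic epithelium a further beta subunit, Psmb11, takes the place of Psmb5.

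The arrays give no sequence, so upstream sequences of 4 catalytic genes described below are shown from RefSeq (GRCm38.p6), as the 250 bases before the annotated start, 5′ to 3′ on the gene's strand. Psmb6 and Psmb5 are constitutive and Psmb9 and Psmb8 are their immunoproteasome counterparts. Capitals mark the matches to the motifs searched on both strands, which were CCAAT, known as the box bound by nuclear factor Y, then TGACNNNGC, known as the core of the antioxidant response element, and GGGCGG, known as the GC box. The windows are chr11:70525107-70525356 (plus strand) for Psmb6, chr17:34187331-34187580 (minus strand) for Psmb9, chr14:54617996-54618245 (minus strand) for Psmb5 and chr17:34197945-34198194 (plus strand) for Psmb8.
Psmb6: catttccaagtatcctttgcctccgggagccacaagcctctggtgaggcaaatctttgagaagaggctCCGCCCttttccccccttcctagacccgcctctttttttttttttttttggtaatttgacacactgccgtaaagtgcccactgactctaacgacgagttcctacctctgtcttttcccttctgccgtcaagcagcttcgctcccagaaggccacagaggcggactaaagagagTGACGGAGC
Psmb9: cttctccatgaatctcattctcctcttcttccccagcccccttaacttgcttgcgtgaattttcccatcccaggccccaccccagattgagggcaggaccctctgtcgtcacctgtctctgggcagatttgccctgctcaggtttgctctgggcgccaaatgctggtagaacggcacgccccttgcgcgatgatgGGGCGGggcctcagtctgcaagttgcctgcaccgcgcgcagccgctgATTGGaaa
Psmb5: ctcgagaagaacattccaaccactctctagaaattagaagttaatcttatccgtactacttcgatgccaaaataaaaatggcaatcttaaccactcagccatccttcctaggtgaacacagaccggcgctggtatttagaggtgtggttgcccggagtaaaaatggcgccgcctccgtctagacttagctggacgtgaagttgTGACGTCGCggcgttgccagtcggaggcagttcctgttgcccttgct
Psmb8: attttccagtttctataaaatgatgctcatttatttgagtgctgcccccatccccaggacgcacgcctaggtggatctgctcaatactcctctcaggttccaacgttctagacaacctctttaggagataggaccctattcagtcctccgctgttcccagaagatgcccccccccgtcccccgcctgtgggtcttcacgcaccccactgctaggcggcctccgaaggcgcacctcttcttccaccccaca
In Psmb6 the capitals are a GC box and, at the very end of the window, a TGACNNNGC match. In Psmb9 they are a GC box and, on the other strand, a CCAAT box, in Psmb5 a TGACNNNGC match, and in Psmb8 none of the 3 motifs was found.

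Such windows were found for 38 of the 46 members. TGACNNNGC, the core of the element that the factors encoded by Nfe2l1 and Nfe2l2 bind, was in 5 of them (13.2%), those of Psmb5, Psmb6, Psmc6, Psmd9 and Psmd12, against 11.5% of 27025 genes. A GC box was in 21 (55.3%, against 35.4% of all genes) and a CCAAT box in 15 (39.5%, against 37.5%). These are matches of letters and no measurement of binding.

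No constitutive proteasome gene passed the test for a difference between the subsets. In the linear model across all 45037 probe sets (limma, log2 of the intensity plus 16, adjusted p under 0.05), 0 of 46 members were higher and 0 lower in each of the 6 comparisons, and 0 differed among SP1 to SP4 by the moderated F test. For all probe sets, 1.08% were called in SP4 against SP1, 0.557% in SP4 against SP2, 0.16% in SP4 against SP3, 0.0111% in SP3 against SP1 and 0% in SP3 against SP2 and in SP2 against SP1, and 0.582% by the F test. At these low shares a count of 0 among 46 does not set the members apart. At an unadjusted p under 0.05, 1 member was lower in SP4 against SP1, Psmd8, where 3.26% of all probe sets were. At that threshold 0 members passed in the other comparisons and by the F test, where 6.41% of all probe sets passed in SP4 against SP2, 4.76% in SP4 against SP3, 3% in SP3 against SP1, 3.02% in SP3 against SP2, 2.75% in SP2 against SP1 and 5.6% by the F test. With the replicate number as a block, again 0 members were called in any comparison, at 5.16% of all probe sets called in SP4 against SP1, 2.65% in SP4 against SP2, 1.16% in SP4 against SP3, 0.329% in SP3 against SP1, 0.22% in SP3 against SP2, 0.00888% in SP2 against SP1 and 3.7% by the F test. There 8 members were lower in SP4 against SP1 at an unadjusted p under 0.05 (Psmb6, Psmb7, Psmc1, Psmc3, Psmc5, Psmd8, Psmd9 and Psmg1), against 8.05% of all probe sets. With the block 0 were higher, so in either direction 8 of 46 members passed, against 7531 of 45037 probe sets. In SP4 against SP2, SP4 against SP3 and SP2 against SP1 0 members passed, against 6190, 4961 and 3658 probe sets. In SP3 against SP1 and SP3 against SP2 1 member each passed, against 3802 and 3903. By the F test 0 passed, against 6654. None of the 99 probe sets that name a member was called in any comparison, without or with the block.

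The 95% confidence intervals bound what could have been missed. In SP4 against SP1 the intervals of all 46 members excluded a 2-fold rise of the intensity plus 16, and those of 38 also excluded a 2-fold fall. The 8 members whose interval reached past a 2-fold fall were Psmb3, Psmb6, Psmb7, Psmc3ip, Psmc5, Psmd2, Psmd13 and Psmg3. Psma8 and Psmb11 read below the offset of 16 on every array, so their intervals do not bound a 2-fold change of the intensity itself. Of the 43 members with a mean intensity of at least 100, the intervals of 43 excluded the rise and those of 36 also the fall. The median distance from an estimate to its limits over the 46 members was 0.49 on the log2 scale. The number of members with both limits inside 2-fold was 41 in SP4 against SP2, 40 in SP4 against SP3, 43 in SP3 against SP1, 39 in SP3 against SP2 and 36 in SP2 against SP1. Among the 43 members with a mean of at least 100 it was 38, 38, 40, 37 and 34 in the same order.

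**Figure D1:**
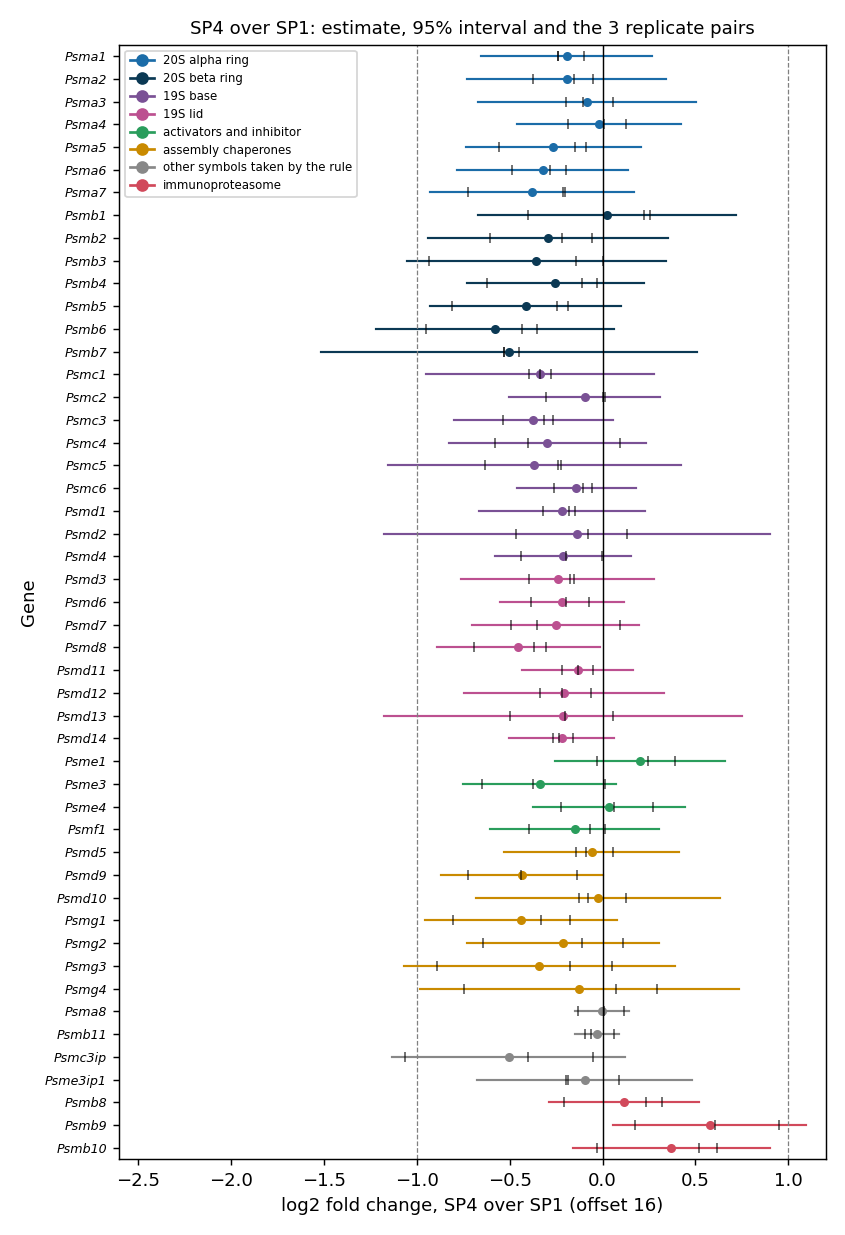
Log2 fold change of each gene in SP4 over SP1 (point) with its 95% confidence interval (line) and the difference within each of the 3 replicate numbers (ticks), coloured by role, with Psmb8, Psmb9 and Psmb10 at the foot. Most points lie slightly left of 0, with a median of -0.22 over 46 members. The intervals of all members but Psmd8 cover 0. Those of 38 lie between the dashed lines, which mark a 2-fold change of the intensity plus 16.

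The estimates nonetheless leaned one way. In SP4 against SP1, 43 of 46 log2 fold changes lay below 0, against 54.2% of all probe sets, with a median of -0.22, against -0.01 over all probe sets, and a range of -0.58 to 0.20. The exceptions were Psme1, Psme4 and Psmb1. The difference was below 0 within all 3 replicate numbers for 25 members (54.3%) and above 0 within all 3 for 0. The share over all probe sets was not computed and the members varied together between arrays, so these counts are a description. The median difference was -0.40 in replicate 1, -0.15 in replicate 2 and -0.09 in replicate 3, largest in replicate 1, and without 1 array at a time the median ranged from -0.31 to -0.12. For 8 members (17.4%) all 3 SP4 arrays lay below all 3 SP1 arrays, namely Psma5, Psma7, Psmb5, Psmc3ip, Psmd4, Psmd9, Psmd14 and Psmg1, and such a gap was seen for 6.19% of all probe sets. All SP2 arrays lay below all SP1 arrays for 3 members (Psmb4, Psmb5 and Psmd4), against 2.57% of all probe sets, and all SP3 arrays for Psmb3, against 3.3%. All SP3 arrays lay above all SP1 arrays for Psme1, against 3.89% of all probe sets.

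The mean of SP1 was the highest of the 4 subset means for 37 members and that of SP4 the lowest for 22, with SP2 the lowest for 19. The median was -0.24 in SP2 against SP1, with 42 of 46 below 0, -0.09 in SP3 against SP1, 0.14 in SP3 against SP2, -0.12 in SP4 against SP3 and -0.02 in SP4 against SP2. These comparisons share arrays, and single arrays carried much of them. The median in SP2 against SP1 was -0.07, -0.66 and -0.01 in replicates 1, 2 and 3, and that in SP4 against SP3 was -0.54, 0.08 and 0.03.

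2 arrays stood low, SP2 replicate 2 and SP4 replicate 1. For 32 of 46 members the lowest of the 12 intensities was on one of them, 19 in SP2 replicate 2 and 13 in SP4 replicate 1. Of all 45037 probe sets, 4942 and 3308 had their lowest value there, and of the 13737 with a mean intensity of at least 100, 2560 and 1106. SP2 replicate 2 also held the highest value of 2546 of these brighter probe sets, the most of any array. For the members, the median difference from the gene's mean over all arrays was -0.35 in SP2 replicate 2 and -0.29 in SP4 replicate 1. The same over all probe sets was 0.01 and -0.01. The highest median of the members was 0.25, in SP1 replicate 2, which held the highest value of 17 members and of 1994 of all probe sets. Without both low arrays, an alternative chosen after seeing the data, the median was -0.12 in SP4 against SP1 and -0.08 in SP2 against SP1, and 0 members were called in any comparison. Other sets of genes also stood apart on these arrays. The 8 reference genes had their 2 highest sums there, 40410 and 39470, against 29890 to 37330 on the others, and SP2 replicate 2 had the lowest sums of the markers of double positive thymocytes (1621), B cells (668), myeloid and dendritic cells (269) and NKT and innate-like cells (144). Their part in the low values was not tested.

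**Figure D2:**
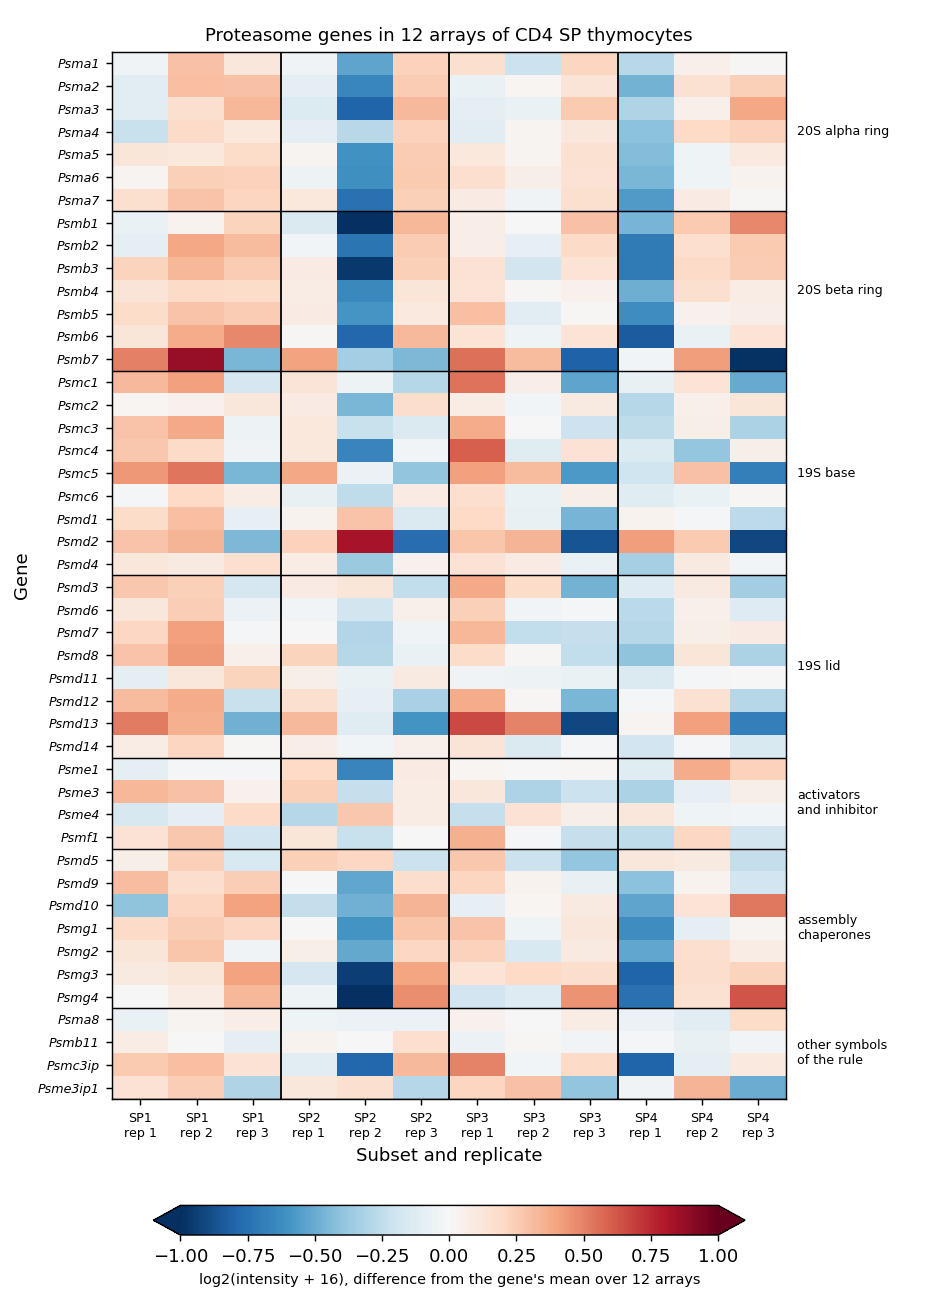
Log2 intensity (offset 16) of the 46 genes on the 12 arrays as the difference from each gene's mean, with rows grouped by role and columns by subset and replicate (red above, blue below the mean). SP2 replicate 2 and SP4 replicate 1 stand out as blue columns in the 20S and chaperone rows, and Psmb7, Psmc5, Psmd2 and Psmd13 are low in replicate 3 of every subset.

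The shift on these 2 arrays differed in size between the parts of the particle. The median deviation of the alpha ring was -0.61 in SP2 replicate 2 and -0.44 in SP4 replicate 1, that of the beta ring -0.73 and -0.62, and that of the assembly chaperones -0.52 and -0.53. It was smaller in the 19S base, at -0.22 and -0.13, and in the lid, at -0.10 and -0.17. The differences between parts are given as a description.

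The 7 alpha ring genes, which form the gated outer rings, followed this pattern closely. Psma7 read 1164, 1272 and 1206 in SP1, 1120, 614 and 1227 in SP2, 1099, 1012 and 1164 in SP3, and 697, 1097 and 1047 in SP4. Every SP4 array was below every SP1 array, and the lowest values were again those of SP2 replicate 2 and SP4 replicate 1. The log2 fold change of Psma7 in SP4 against SP1 was -0.38 (SE 0.25, adjusted p = 0.893, limma). The other alpha ring genes ranged from -0.32 (Psma6) to -0.02 (Psma4).

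In the beta ring, the fold between the lowest and the highest array had a median of 2.5, against 1.83 over all members. Psmb3, a structural subunit, read 1309, 1412 and 1339 in SP1, 1189, 565 and 1324 in SP2, 1240, 985 and 1231 in SP3, and 678, 1279 and 1341 in SP4. The subsets overlapped except SP3 and SP1, and the other arrays of SP2 and SP4 read between 1189 and 1341. Psmb1, also structural, was among the 4 highest by the change in SP4 against SP1. It read 1327, 1425 and 1622 in SP1, 1254, 675 and 1751 in SP2, 1454, 1394 and 1699 in SP3, and 999, 1665 and 1943 in SP4. SP4 thus held both its highest value and one of its lowest, with a log2 fold change of 0.03 against SP1.

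The 3 constitutive catalytic genes were among the lower estimates in SP4 against SP1. Psmb6 (chromosome 11) read 1242, 1475 and 1598 in SP1, 1145, 656 and 1431 in SP2, 1253, 1105 and 1254 in SP3, and 634, 1088 and 1250 in SP4. The highest SP4 array lay just above the lowest SP1 array, so the groups overlapped by 1 array. Its log2 fold change in SP4 against SP1 was -0.58 (95% interval -1.22 to 0.06, adjusted p = 0.726, limma), the lowest of the 46. Without SP4 replicate 1 it was -0.29, and without any other array of either subset -0.77 to -0.50.

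Psmb5 (chromosome 14) read 1206, 1292 and 1266 in SP1, 1121, 698 and 1132 in SP2, 1306, 975 and 1066 in SP3, and 681, 1087 and 1110 in SP4. Both SP4 and SP2 lay wholly below SP1, by -0.41 (interval -0.93 to 0.10) and -0.38 on the log2 scale, and SP4 by -0.19 without its replicate 1. Its level followed the median of the other members most closely, with r = 0.966 over the 12 arrays. Psmb7 (chromosome 2) read 1627, 2106 and 828 in SP1, 1522, 903 and 835 in SP2, 1688, 1431 and 648 in SP3, and 1123, 1536 and 569 in SP4. Replicate 3 was lowest in each subset, and within each replicate number SP4 was below SP1 by -0.53, -0.45 and -0.53. Its estimate in SP4 against SP1 was -0.50, and with 1 array left out it ranged from -0.88 to -0.11.

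The genes of the 19S base hold the ATPases Psmc1 to Psmc6, the scaffold subunits Psmd1 and Psmd2 and the ubiquitin receptor Psmd4. All 9 had a log2 fold change below 0 in SP4 against SP1, between -0.37 (Psmc3) and -0.10 (Psmc2), and none was called. Psmd4 read 1323, 1305 and 1374 in SP1, 1287, 944 and 1260 in SP2, 1352, 1296 and 1169 in SP3, and 970, 1302 and 1198 in SP4. SP4 and SP2 were each below SP1 without overlap, by -0.21 in both.

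In the lid, Psmd8 had the lowest p of all members in SP4 against SP1. It read 1459, 1611 and 1238 in SP1, 1394, 974 and 1140 in SP2, 1359, 1205 and 1005 in SP3, and 899, 1300 and 956 in SP4. Its log2 fold change in SP4 against SP1 was -0.45 (interval -0.89 to -0.02, adjusted p = 0.601, limma), lower in 3 of 3 replicate numbers. The other lid genes ranged from -0.25 to -0.13. Psmd14, the deubiquitinase of the lid, was steadier, with 1954, 2154 and 1866 in SP1, 1937, 1823 and 1916 in SP2, 2027, 1677 and 1839 in SP3, and 1622, 1828 and 1669 in SP4. Psmd11, a lid subunit, varied least of all members, by 1.30-fold between its lowest and highest array (1087 and 1408).

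Among the activators, Psme1, a subunit of the interferon-inducible cap, had the highest estimate of the 46 in SP4 against SP1. It read 2102, 2208 and 2207 in SP1, 2568, 1411 and 2373 in SP2, 2273, 2239 and 2260 in SP3, and 2056, 2904 and 2623 in SP4. 2 of 3 SP4 arrays lay above SP1 and the third below it, with a log2 fold change of 0.20 (interval -0.26 to 0.66). Psme3, of the nuclear activator, differed by -0.34, Psmf1, an inhibitor of the core in vitro, by -0.15, and Psme4, a nuclear activator, by 0.04. Psme4 read 398, 416 and 513 in SP1, 365, 541 and 472 in SP2, 378, 495 and 466 in SP3, and 485, 434 and 438 in SP4. It was higher in SP2 replicate 2 than on any other array, and its correlation with the median of the other members was r = -0.639 over the 12 arrays.

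The 7 assembly chaperone genes, Psmg1 to Psmg4 for the core and Psmd5, Psmd9 and Psmd10 for the base, varied much like the core genes between arrays, apart from Psmd5. The correlation with the median of the other members was above 0.5 for 6 of them and -0.0883 for Psmd5. Psmg1 read 721, 751 and 729 in SP1, 633, 411 and 767 in SP2, 773, 614 and 682 in SP3, and 406, 593 and 643 in SP4. Its SP4 arrays were all below its SP1 arrays, by -0.44 on the log2 scale (interval -0.96 to 0.08), and Psmd9 differed by -0.43 in the same way. Psmg4 spanned 111 to 377 over the 12 arrays, lowest in SP2 replicate 2 and highest in SP4 replicate 3.

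4 genes meet the rule by their symbol but encode no subunit of the proteasome of most body cells. Psma8, of the testis core, read 8.67, 10.3 and 10.9 in SP1, 8.98, 8.73 and 8.79 in SP2, 10.6, 9.73 and 11.1 in SP3, and 8.78, 7.96 and 13.2 in SP4. Psmb11, of cortical thymic epithelium, read 8.68 to 13.5, and both genes lay below the median of every array, which lay between 30.5 and 32.8. Psmc3ip, a cofactor of meiotic recombination, read 100, 103 and 91.2 in SP1, 73.4, 40.3 and 105 in SP2, 120, 79.1 and 94.7 in SP3, and 39.6, 74.2 and 87.6 in SP4. It was dim and had its lowest values on the same 2 arrays, with r = 0.921 to the median of the other members. Psme3ip1, which binds the nuclear activator, differed by -0.10 in SP4 against SP1.

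Across the 12 arrays, the correlation of each member with the median of the other 45 had a median of r = 0.7, and it was above 0.5 for 32 of 46 members. It was 0.63 to 0.945 in the alpha ring and 0.344 to 0.966 in the beta ring, with Psmb7 the lowest there. The 2 low arrays and the replicate number are shared by all these points, so the values are a description.

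The log2 fold changes of the 3 immunoproteasome genes in SP4 against SP1 were above 0, although within replicate 1 Psmb10 and Psmb8 were lower in SP4. All 3 had their lowest value in SP2 replicate 2. Psmb9, the counterpart of Psmb6, read 964, 1122 and 781 in SP1, 1235, 700 and 1099 in SP2, 1219, 1231 and 1139 in SP3, and 1088, 1712 and 1525 in SP4. Its log2 fold change in SP4 against SP1 was 0.58 (interval 0.06 to 1.09, adjusted p = 0.527, limma), above 0 in 3 of 3 replicate numbers. Psmb10, the counterpart of Psmb7, read 759, 743 and 740 in SP1, 906, 496 and 912 in SP2, 822, 754 and 943 in SP3, and 744, 1071 and 1145 in SP4. It differed by 0.37 (adjusted p = 0.884), with 1 SP4 array inside the narrow range of SP1. Psmb8, the counterpart of Psmb5, read 2168, 2342 and 1851 in SP1, 2423, 1677 and 2104 in SP2, 2537, 2276 and 2050 in SP3, and 1875, 2762 and 2311 in SP4. It differed by 0.12 (adjusted p = 1.00), and none of the 3 was called.

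**Figure D3:**
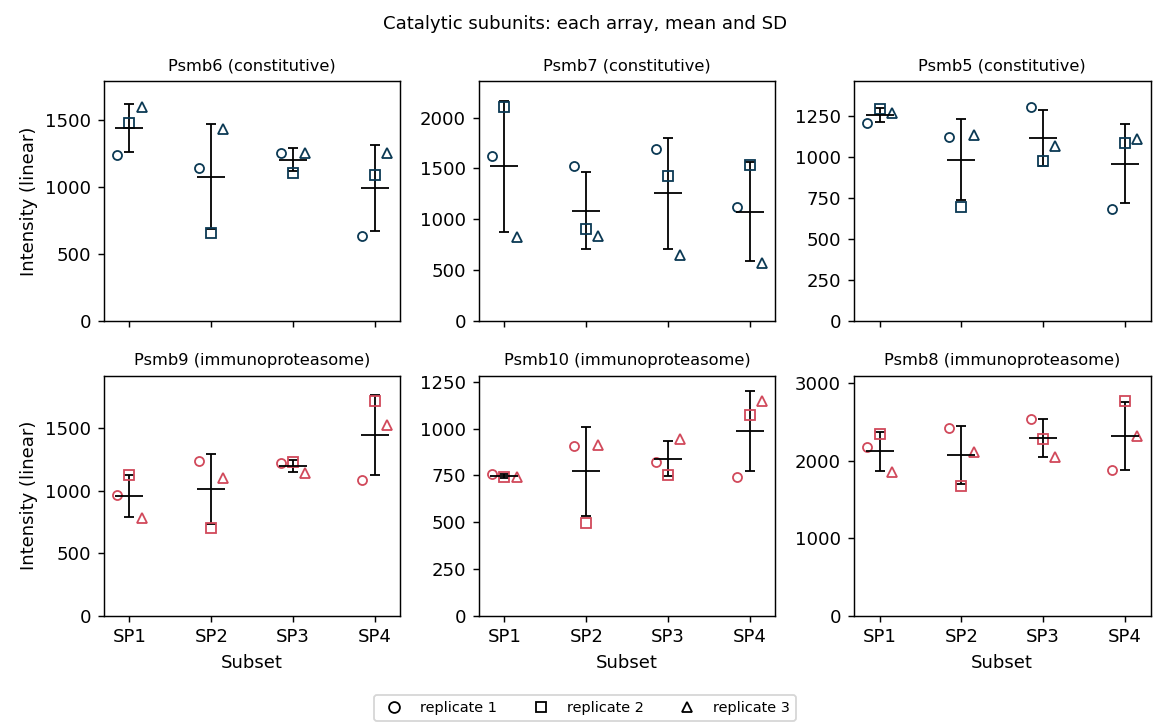
Linear intensity of the 3 constitutive catalytic genes (top) and of their immunoproteasome counterparts (bottom) in SP1 to SP4, with 1 symbol per array by replicate number and the mean and SD of 3 arrays in black. The low square in SP2 and the low circle in SP4 recur in Psmb6, Psmb5, Psmb9 and Psmb10, and the triangles of Psmb7 are the lowest in each subset.

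Set against its constitutive counterpart within an array, each immunoproteasome gene was higher in SP4 than in SP1 in 3 of 3 replicate numbers. The log2 ratio of 2 probe sets is not a ratio of molecules, since probes differ in brightness, but its change between arrays can be read. A shift of an array cancels in it only where it moves both genes equally, and this was not so in SP4 replicate 1, where Psmb6 lay at -0.83 from its mean and Psmb9 at -0.04. In SP2 replicate 2 they lay at -0.78 and -0.67. The ratios were chosen after the values were seen, and Psmb9 over Psmb6 sets the highest of the 3 immunoproteasome changes against the lowest of the 46, so that the p-values given for them are a description and no independent evidence. For Psmb9 over Psmb6 it was -0.36, -0.39 and -1.02 in SP1, 0.11, 0.09 and -0.38 in SP2, -0.04, 0.15 and -0.14 in SP3, and 0.76, 0.65 and 0.28 in SP4. Every SP4 array lay above every array of the other subsets. The means were -0.59 ± 0.37, -0.06 ± 0.27, -0.01 ± 0.15 and 0.57 ± 0.25 in SP1, SP2, SP3 and SP4 (SD, n = 3 each). An exact permutation test of the F statistic among the 4 subsets, over the 369600 ways to assign the arrays, gave p = 0.00182, and p = 0.00545 after adjustment over the 3 ratios. SP4 exceeded SP1 by 1.15, and by 1.04 to 1.30 within the 3 replicate numbers. For SP4 against each other subset, the two-sided exact permutation p was 0.1, the smallest that 3 against 3 arrays allows (0.257 after adjustment over 18 comparisons of pairs of subsets). Without SP2 replicate 2 and SP4 replicate 1, SP4 exceeded SP1 by 1.05 and the adjusted p of the exact permutation test was 0.0519, no longer under the threshold.

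Psmb8 over Psmb5 shifted less. The ratio was 0.84, 0.85 and 0.54 in SP1, 1.10, 1.25 and 0.89 in SP2, 0.95, 1.21 and 0.93 in SP3, and 1.44, 1.33 and 1.05 in SP4. SP1 lay below each of the other subsets without overlap, and SP4 exceeded it by 0.53. The exact permutation test over the 4 subsets gave an adjusted p of 0.0539, and of 0.00781 when arrays were permuted within replicate numbers. Psmb10 over Psmb7 exceeded SP1 by 0.87 in SP4, by 0.50, 0.97 and 1.15 within replicates 1, 2 and 3. Its adjusted exact permutation p was 0.601, and 0.0122 within replicate numbers, and replicate 3 of Psmb7 was the lowest in each subset.

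**Figure D4:**
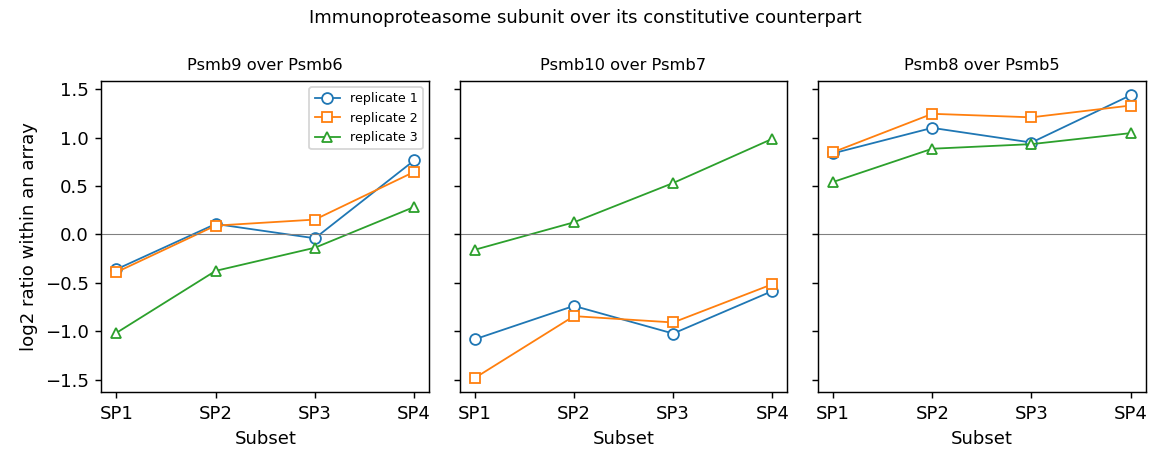
Log2 ratio within an array of each immunoproteasome gene over its constitutive counterpart in SP1 to SP4, with a line per replicate number. In all 3 panels and all 3 replicates SP4 lies above SP1, and for Psmb9 over Psmb6 the SP4 points lie above those of every other subset.

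Markers of NKT cells and innate-like T cells were also highest in SP4. Of 7 measured genes of this list, 5 rose in SP4 against SP1, and 6 with the block. Their summed intensity was 156 to 367 in SP1, 144 to 279 in SP2, 340 to 480 in SP3 and 1345 to 2262 in SP4, although NK1.1+ cells had been gated out. Markers of double positive thymocytes summed to 1931 to 9541 in SP1 and 1621 to 3695 in SP2. The sums were 3973 to 16510 in SP3 and 2151 to 4823 in SP4. In SP4 against SP1, 12 of these 13 genes lay below 0, with a median log2 fold change of -0.52, and 1 was called lower. That median was -0.95, -0.87 and 0.15 in replicates 1, 2 and 3. In SP3 against SP1, 11 of the 13 lay above 0. No marker was at 0. Their part in the ratios was not tested. T cell markers summed to 12810 to 16150 over the 12 arrays, B cell markers to 668 to 3540, myeloid and dendritic markers to 269 to 1290, thymic epithelial markers to 351 to 516, erythroid markers to 15.7 to 23.3 and proliferation genes to 5918 to 20600. Among these lists, 1 thymic epithelial marker (Ly75) rose in SP4 against SP1, and none of the T cell, B cell, myeloid, erythroid or proliferation lists had a called gene in that comparison without the block. With the block the myeloid and dendritic genes Itgam and Siglech rose, and without it Siglech rose in SP4 against SP2 and against SP3.

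The other large source of variation was the replicate number. Against replicates 1 and 2, and with the subset in the model, the 4 arrays of replicate 3 were higher for 4 members and lower for 10 (limma, adjusted p under 0.05, a comparison chosen after the values were seen). For all probe sets 20.3% were higher and 17.7% lower. Of the 13737 probe sets with a mean intensity of at least 100, which 43 members reached, 3905 were higher and 3870 lower. The share of members that rose was smaller than in either background. The share that fell was slightly larger than in all probe sets and smaller than in the brighter ones. The falls lay mostly in the 19S particle. 4 were in the base (Psmc1, Psmc5, Psmd1 and Psmd2), 3 in the lid (Psmd3, Psmd12 and Psmd13), and the others were Psmb7, Psmd5 and Psme3ip1. The rises were Psma3, Psmb1, Psmd10 and Psmg4.

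Psmd2 differed most among the probe sets read for the 46 genes. Its replicate 3 arrays read 651, 521, 482 and 466 in SP1 to SP4, against 1051 to 1595 on the other 8, a log2 difference of -1.12 (SE 0.12, adjusted p = 1.25e-05, limma). Psmb7 differed by -1.01, and Psmd13 read 145 to 201 in replicate 3, against 262 to 462 on the other arrays. For 9 members all 4 replicate 3 arrays lay below the other 8, a pattern of 10.4% of all probe sets, and for 3 they lay above, against 10.9%. Of the 13737 probe sets with a mean intensity of at least 100, 2653 lay below in this way and 2506 above. The members were thus near the share of these brighter probe sets for the first pattern and under it for the second. Between replicates 2 and 1 none of the 46 was called. Of all 45037 probe sets only 10 were higher and 71 lower there, so this count does not set the members apart.

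Different probe sets of a gene did not always behave alike in this comparison. Of 26 members with several probe sets, 4 had probe sets called in opposite directions. These were Psma1, Psmd11, Psme3 and Psme4, and in none of them was the probe set read for the gene itself called. For Psmd11, probe sets of mean intensity 769 and 367 differed by 1.14 and -0.55. In the other 3 genes one side of the pair was dimmer, with mean intensities of 18.04 in Psma1, 9.35 in Psme3 and 77.9 and 47.1 in Psme4. Probe sets of Psmc2 differed by 0.19 and -0.73, of which the first was not called. Replicate 3 also had lower sums of proliferation genes, 5918 to 8839, against 11490 to 20600 on the other arrays. Their part in the difference was not tested.

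**Figure D5:**
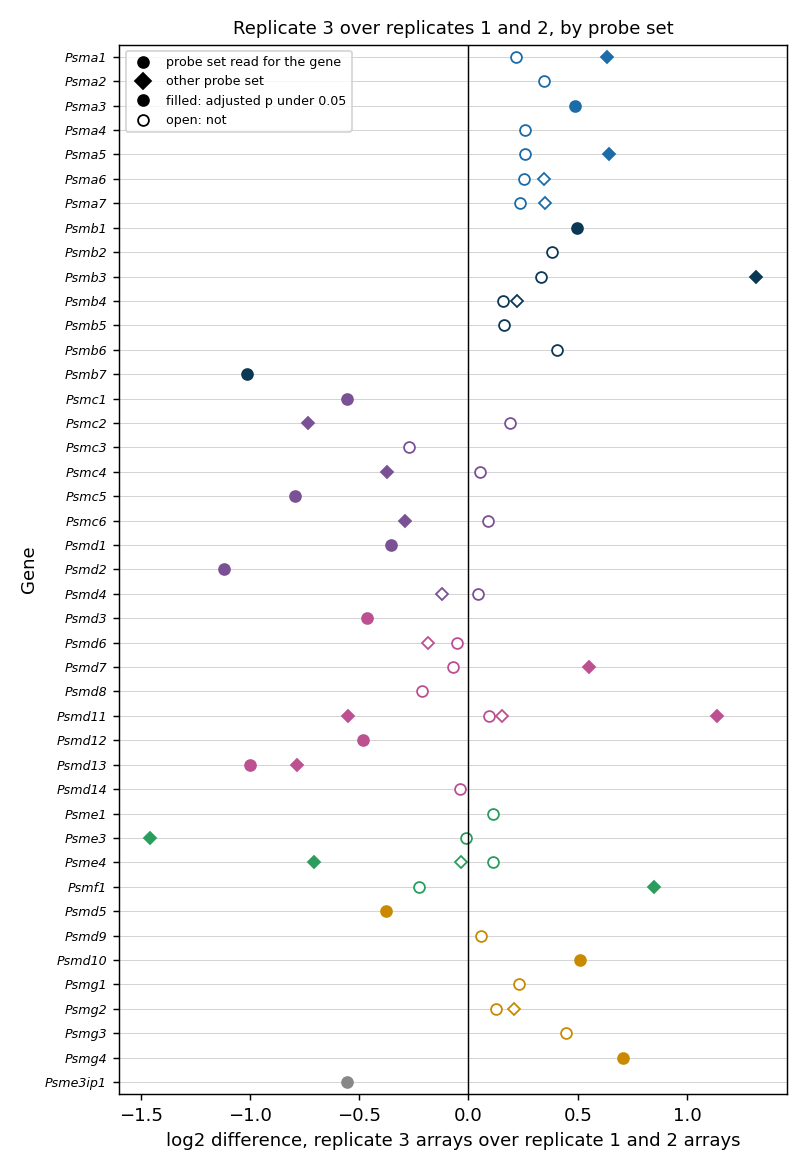
Log2 difference of the 4 replicate 3 arrays over the 8 arrays of replicates 1 and 2, for each probe set with a mean intensity of at least 100, with circles for the probe set read for the gene, diamonds for its other probe sets, and filled symbols at an adjusted p under 0.05. Core genes lie mostly right of 0 and several base and lid genes left of it, and the probe sets of Psmd11, Psmc2, Psme3 and Psmf1 lie far apart.

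Among other genes of the pathway, of 11 measured proteasome-associated and assembly factors, 8 had a log2 fold change below 0 in SP4 against SP1 and none was called, with a median of -0.13. Pomp, the maturation factor of the core, read 1314, 1653 and 1584 in SP1, 1331, 776 and 1408 in SP2, 1200, 1274 and 1334 in SP3, and 881, 1388 and 1293 in SP4, low on the same 2 arrays as the core genes. Of 10 unfoldase and shuttle factors, among them Vcp, none was called (median -0.09). They did not share the low arrays, with a summed intensity of 7109 in SP2 replicate 2 and 6608 in SP4 replicate 1, against 5323 to 6708 on the others. None was called either of 8 reference genes, nor was Uba6, the 1 measured gene of the ubiquitin and activating enzyme list.

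Of 11 regulators of proteasome genes, 0 were called without the block and 3 with it in SP4 against SP1, where 5.16% of all probe sets were called with it. Bach1, a repressor at antioxidant response elements, read 1059, 1226 and 3628 in SP1, 524, 570 and 2171 in SP2, 726, 941 and 2195 in SP3, and 368, 432 and 1066 in SP4. Within each replicate number SP4 was lowest and SP1 highest, and replicate 3 was the brightest in each subset, so that the fall of 1.57 (log2 fold change -1.57) had an adjusted p of 0.534 without the block and 3.68e-05 with it (limma). Nfe2l2, an activator at the same elements, read 167, 241 and 374 in SP1, 234, 295 and 529 in SP2, 282, 320 and 633 in SP3, and 330, 359 and 749 in SP4. It rose by 0.81 with an adjusted p of 0.00126 with the block and 0.74 without it, and SP4 was the highest within each replicate number. Ngly1, which processes the factor of Nfe2l1, differed by 0.50 (adjusted p = 0.0334 with the block and 0.683 without it), and Nfe2l1 itself by 0.04.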

How the data were processed

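RNA of sorted CD4 SP thymocytes was hybridized to 12 Affymetrix mouse genome arrays. The deposited table holds 1 linear intensity per probe set and array, after background correction and normalization by the authors, which the methods call RMA and the notes of the submitters call MAS5, without versions in the sources used here. Of 45037 probe sets, 34945 name 1 gene by the array annotation, 932 several and 9160 none listed here. Gene IDs of all 46 members matched the RefSeq table.

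With limma 3.58.1 in R 4.3.3, log2(intensity + 16) of all probe sets was fitted with 1 mean per subset on 12 arrays (8 residual degrees of freedom), followed by eBayes with trend and Benjamini-Hochberg adjustment over all probe sets within each of 6 comparisons. This takes the place of the SAM test of the methods. Calls were made below an adjusted p of 0.05, whatever the fold. Intervals are at 95% and tests two-sided. Ratios were tested by exact permutation over arrays. The script was tested on simulated data with independent noise, which lacked the shift of replicate 3 and the shared variation of the members.

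The replicate numbers come from the labels. Deviations from subset means of same-numbered arrays correlated at 0.279 to 0.883, replicates 1 and 2 with each other at 0.178 to 0.729, and replicate 3 with replicates 1 and 2 at -0.812 to -0.388. Replicate 3 thus stood apart from replicates 1 and 2. By the threshold of 0.1 the number was taken to pair the arrays, and a fit with it as a block (6 residual degrees of freedom) was made. Replicates 1 and 2 passed this threshold with each other too, so the check does not show that a shared number marks a pair. Named with all arrays were the 3 catalytic genes, the 4 members of highest and lowest change in SP4 against SP1, and any member called or with probe sets opposed past an unadjusted p of 0.05, of which SP4 against SP1 had none. Further genes (Psma1, Psma7, Psmb3, Psmb11, Psmc2, Psmd11, Psmd2, Psmd4, Psmd14, Psmg1, Pomp and regulators) were named after their values were seen. The members and lists were chosen with earlier results of these data known.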

Additional observations from a re-analysis of the deposited data

How the results depend on the processing

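Over 24 alternative settings (offsets, quantile normalization, median centring, other choices of probe set, a minimum mean intensity, the replicate block, each array left out, and 2 sets of arrays left out that were chosen after seeing the data), the count of members called stayed at 0 in each comparison and in the F test. With each array left out, the median log2 fold change ranged from -0.31 to -0.12 in SP4 against SP1, -0.15 to 0.08 in SP4 against SP2, -0.25 to -0.03 in SP4 against SP3, -0.15 to -0.05 in SP3 against SP1, -0.03 to 0.21 in SP3 against SP2 and -0.35 to -0.08 in SP2 against SP1. Without SP2 replicate 2 and SP4 replicate 1 the median in SP3 against SP2 was -0.03, and without replicate 3 that in SP4 against SP2 was 0.03, each of opposite sign to the value on all arrays. Of the fold changes of single named genes, 102 changed sign, called in neither setting.

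The ratios were chosen after the values were seen, so their p-values describe the settings and are no independent evidence. The same holds for leaving out replicate 3, and the replicate block rests on numbers not shown to mark pairs. The ratio of Psmb8 over Psmb5, SP4 minus SP1, crossed the threshold with quantile normalization (0.55, adjusted p = 0.0332), with the probe sets of a gene averaged (0.50, adjusted p = 0.0243), and with the replicate block (0.53, adjusted p = 0.00781), all exact permutation tests. With each array left out it ranged from 0.43 to 0.64, with adjusted exact p from 0.0244 to 0.199. The ratio of Psmb10 over Psmb7 crossed it with the replicate block (0.87, adjusted exact p = 0.0122) and without replicate 3 in all subsets (0.74, adjusted exact p = 0.0286), and ranged from 0.36 to 1.25 with each array left out. That of Psmb9 over Psmb6 ranged from 0.94 to 1.30, with adjusted exact p from 0.00312 to 0.029, and lost the threshold without SP2 replicate 2 and SP4 replicate 1 (1.05, adjusted exact p = 0.0519). The cause was not tested. Beside these ratios and the regulators Bach1, Nfe2l2 and Ngly1, the block changed no other call of a member or of the pathway genes in SP4 against SP1. Precision is limited by 3 arrays a subset.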
